A study of Bos taurus with 44 samples.

Results

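Chemokine receptor genes were examined in blood mononuclear cells of Canadian Holstein cows that responded strongly or weakly to immunization. The 7 genes CCR1, CCR3, CCR4, CCR7, CCR9, CXCR2 and CXCR4 were those to which the array annotation gave one of these symbols alone. They were 7 of 141 genes named by a single symbol and took 56 of 1680 spots, 8 spots per gene. No other chemokine receptor of a list of 15 was among the named genes. The array annotation gave no symbol for 440 spots and several symbols for 16, and none of these was used as a receptor.

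Chemokine receptors are G protein-coupled receptors on leukocytes, and each binds one or a few small secreted chemokines whose gradients steer the cell. Which receptors a lymphocyte carries is known to set whether it circulates to lymph nodes, skin, gut or inflamed tissue. In blood, CXCR4 is found on most leukocytes. CCR7 marks naive and central memory T cells, and CCR4 marks Th2, regulatory and skin-homing T cells. CCR3 is best known from eosinophils, basophils and Th2 cells, CCR1 from monocytes and activated T cells, CCR9 from gut-homing lymphocytes and CXCR2 from neutrophils. In the bovine RefSeq annotation (ARS-UCD2.0) CCR1 and CCR3 are direct neighbours with 0 genes between them, and CCR9 lies 4 genes from CCR1. CCR4 lies on the same chromosome with 602 genes between it and CCR1, and 1 gene separates CXCR2 from CXCR1.

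All cows were female and had been immunized with antigens meant to raise antibody and cell-mediated responses, and blood was taken 6 days later. Cows were labelled high or low for the antibody response (high-Ab, low-Ab) or for the cell-mediated response, labelled DTH (high-DTH, low-DTH). The labels give no age, and neither the antigens nor the values behind the classes are given in the sources used here. Each group held 3 cows, and 1 cow, called the shared cow here, was labelled high for both traits and counts in both high groups. This makes 11 cows and 44 arrays, if equal cow numbers in different groups stand for different animals, as was assumed. Mononuclear cells were prepared on a Percoll gradient, and amplified RNA of each cow was hybridised with a common RNA standard on a two-colour spotted cDNA array, with the dyes swapped between arrays of a cow. No cow was sampled before immunization or left without it, so no value below is a response to the immunization.

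Each value is the deposited log ratio, read as log2 of cow over standard. Neither the base nor the direction is stated, and all directions would swap together if the ratio ran the other way. A value of 0 means the same level as in the standard, so values order the cows for 1 gene and cannot set a gene's level against another gene's. Of the 44 arrays, 3 have no settled direction. Averaged over the arrays of other cows, their correlation was −0.23 to −0.20, against at least 0.05 for each of the other 41, and they also ran against the remaining arrays of their own cow. In low-Ab cow 1 these are arrays 1 and 2, and in low-DTH cow 3 it is array 3. They were kept as deposited, and values with their sign turned are called turned. Mononuclear preparations mix cell types, so fewer cells of a type and less RNA per cell cannot be told apart. Of 8 measured T cell markers, 4 of B cells and 5 of monocytes, none gives an absolute level here, so the labelled cell type could not be checked beyond their presence on the array.

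CXCR4, the receptor of the chemokine CXCL12, varied most between cows. Its SD over the 11 cows was 0.44, which ranked 11 among the 141 genes, against a median of 0.15. CCR3 followed with an SD of 0.33 and CCR4 with 0.19, while CXCR2 (0.09) and CCR9 (0.08) varied least. Spots of CXCR4 on an array lay close together (SD 0.10, median gene 0.16), whereas its arrays of a cow had a pooled SD of 0.51 (median gene 0.25). The pooled value takes in low-Ab cow 1 (SD 1.08) and low-DTH cow 3 (SD 1.12), which hold the 3 arrays of unsettled direction. In the other cows the SD lay between 0.10 and 0.53. The spread of CXCR4 was thus between arrays and cows, not between its 8 spots.

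The high-DTH cows had CXCR4 ratios of 0.50 in the shared cow, 0.43 in cow 2 and 0.46 in cow 3. The low-DTH cows stood at −0.35, −0.03 and 0.05 in cows 1 to 3. As deposited, the values of the 3 high-DTH cows were close together and all lay above those of the low-DTH cows. The arrays behind them were wider apart, from −0.13 to 1.04 in high-DTH cow 3 and from −1.32 to 0.81 in low-DTH cow 3. The high-Ab cows other than the shared cow were at −0.44 and −0.21, and the low-Ab cows at 0.00, 0.06 and 1.08. The shared cow was thus the only high-Ab cow above 0, and low-Ab cow 3 was the highest of all 11 cows.

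CCR4, the receptor of the chemokines CCL17 and CCL22, was at 0.37 in the shared cow and at 0.37 and 0.25 in the other high-DTH cows. Low-DTH cows had CCR4 ratios of −0.04, −0.22 and 0.11. These groups did not overlap. CCR4 was at −0.14 and 0.06 in high-Ab cows 2 and 3 and at 0.03, 0.11 and 0.18 in low-Ab cows, so that the shared cow was again the highest of the high-Ab group.

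CCR3, the eotaxin receptor, reached 0.97 in the shared cow, against 0.52 and 0.26 in the other high-DTH cows. It was at −0.04, −0.24 and 0.08 in low-DTH cows. High-Ab cows 2 and 3 had CCR3 ratios of 0.04 and −0.03, within the range of the low-Ab cows at 0.05, 0.20 and 0.03. As deposited, the lowest high-DTH cow, at 0.26, was above each of the 8 other cows for CCR3, but low-Ab cow 1 was above it when turned (0.32). For CCR4, low-Ab cow 1 moved from 0.03 to 0.44 turned, above every high-DTH cow. On arrays, CCR3 was above 0 on 13 of 13 high-DTH arrays and on 4 of 11 low-DTH arrays, and CCR4 on 13 of 13 and 5 of 11. CXCR4 was above 0 on 12 of 13 and 5 of 11.

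**Figure D1:**
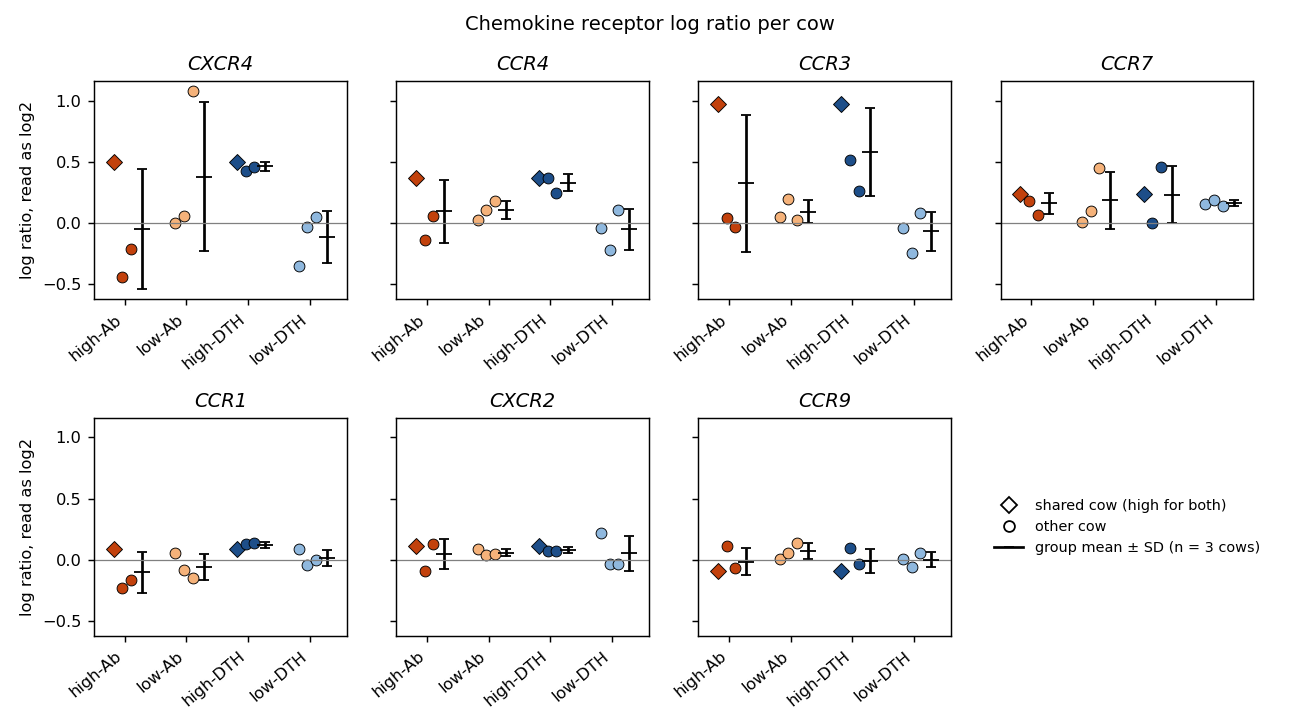
Log ratio of each chemokine receptor gene (y axis, log2 of cow over standard) in each cow of the 4 label groups (x axis), with the group mean ± SD of 3 cows in black; the diamond is the shared cow, drawn in both high groups. As deposited, high-DTH cows lie above low-DTH cows for CXCR4, CCR4, CCR3 and CCR1. Turned, low-DTH cow 3 would lie at 0.71 for CXCR4, above the high-DTH cows, and for CCR1 the nearest cows both round to 0.09. CXCR2 and CCR9 stay within 0.22 of 0 in every cow.

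CCR7, which guides cells into lymph nodes, was at or above 0 in each of the 11 cows as deposited. It ranged from 0.00 in high-DTH cow 2 and 0.01 in low-Ab cow 1 to 0.45 in low-Ab cow 3 and 0.46 in high-DTH cow 3. The low-DTH cows were alike at 0.16, 0.19 and 0.14. No label group stood apart from another for CCR7. The value of 0.01 in low-Ab cow 1 was the mean of arrays between −0.83 and 0.86, and turned it was 0.60.

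CCR1, a receptor of CCL3 and CCL5, was at 0.09, 0.13 and 0.14 in the high-DTH cows. It was at 0.09, −0.04 and 0.00 in low-DTH cows. The groups did not overlap, but the lowest high-DTH and the highest low-DTH cow round to the same value. CCR1 was at −0.23 and −0.16 in high-Ab cows 2 and 3 and at 0.06, −0.08 and −0.15 in low-Ab cows.

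CXCR2, the neutrophil receptor for CXCL8, lay between −0.09 in high-Ab cow 2 and 0.22 in low-DTH cow 1. CCR9, the receptor of the gut chemokine CCL25, lay between −0.09 in the shared cow and 0.14 in low-Ab cow 3. Their groups overlapped in both traits. For both genes the 4 group means lay between −0.01 and 0.08.

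The first comparison set high-DTH against low-DTH cows. CXCR4 averaged 0.46 ± 0.03 (SD, n = 3) in the high-DTH group and −0.11 ± 0.21 in the low-DTH group, and the gap was 0.58 ± 0.12 (SE). CCR4 averaged 0.33 ± 0.07 and −0.05 ± 0.17, which left a gap of 0.38 ± 0.11. CCR3 averaged 0.59 ± 0.36 and −0.07 ± 0.16, and its gap was 0.65 ± 0.20. Their 95% intervals ran from 0.27 to 0.88, from 0.11 to 0.65 and from 0.18 to 1.13. After Benjamini-Hochberg adjustment over 565 features none passed, with a limma adjusted p of 0.494 for each of these 3 genes. Of the 7 receptors 0 passed, and of all features 0.00% did.

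At an unadjusted p under 0.05 stood 3 of the 7 receptors, against 9.73% of all features. Ordered by p they ranked 2 (CXCR4), 5 (CCR4) and 6 (CCR3) among the 141 named genes. Groups did not overlap for 4 of 7 receptors, all of them higher in high-DTH cows, against 15.6% of named genes. The median difference of the 7 receptors was 0.11, against −0.03 over the 141 genes, with 6 higher and 1 lower. The other differences were 0.11 ± 0.08 for CCR1, 0.07 ± 0.13 for CCR7, 0.03 ± 0.10 for CXCR2 and −0.01 ± 0.09 for CCR9, the exception. For CXCR2 the interval of −0.22 to 0.28 and for CCR9 that of −0.24 to 0.21 leave out differences of the size measured for CXCR4 and CCR3, but not differences of 0.2.

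Of the 3 odd arrays only array 3 of low-DTH cow 3 enters this comparison. On it CCR3 was at −0.08 and CCR4 at −0.04, so turning it could hardly move their differences. Turned, CCR3 and CCR4 differed by 0.64 and 0.37 (limma adjusted p = 0.347 for each). CXCR4 fell to 0.36 ± 0.27 and its groups then overlapped, since low-DTH cow 3 moved from 0.05 to 0.71. CCR1 was at 0.18 ± 0.10 turned. Without the shared cow CCR3 differed by 0.46, CCR4 by 0.36 and CXCR4 by 0.56. Of these 3 genes CCR3 was the one for which the shared cow added most.

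**Figure D2:**
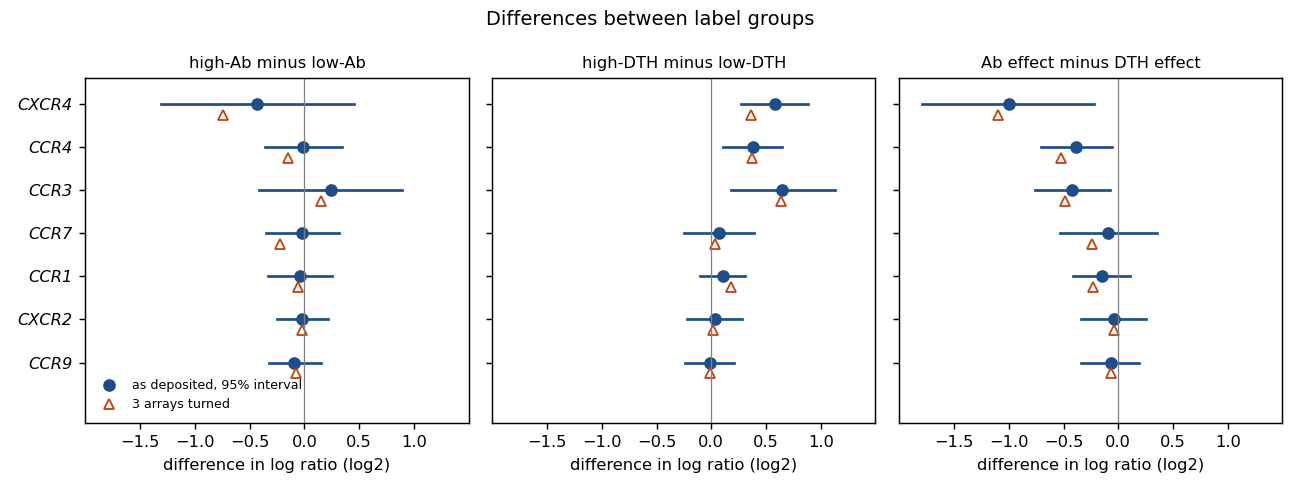
Difference in log ratio (x axis, log2) for each receptor gene (y axis) between high-Ab and low-Ab cows, between high-DTH and low-DTH cows, and between these effects; blue points and bars are the values as deposited with their 95% interval, open triangles the values with 3 arrays turned. The intervals of CXCR4, CCR4 and CCR3 lie above 0 for DTH and below 0 for the difference of effects, while all 7 intervals include 0 for Ab.

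Ratios of T cell markers also lay higher in high-DTH cows, and CCR4, CCR3 and CCR7 are among the receptors carried by T cells. The mean of the 8 measured of 13 listed T cell markers lay between 0.31 and 0.62 in high-DTH and between 0.00 and 0.34 in low-DTH cows. Of these 8 markers 7 had higher and 1 had lower ratios in the high-DTH group (median 0.26), and none passed adjustment. The monocyte mean (5 of 10 markers) lay between −0.23 and 0.13 in high-DTH and between −0.41 and 0.06 in low-DTH cows. The B cell mean (4 of 8 markers) lay between −0.44 and 0.06 and between −0.03 and 0.53. Their part in the receptor differences was not tested. For CCR3, the only measured granulocyte marker, the neutrophil granule gene LTF, differed by −0.04 ± 0.22, and the listed eosinophil genes EPX and PRG2 were not among the named genes. Of other cell types, the gamma delta T cell gene CD163L1 (1 of 4 markers) differed by 0.45 ± 0.37, FCGR3A and XCL1 of natural killer cells (2 of 9) by −0.21 ± 0.31 and −0.06 ± 0.09, and 0 of 4 platelet markers were measured.

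The second comparison set high-Ab against low-Ab cows, and no receptor stood apart. CXCR4 averaged −0.05 ± 0.49 in the high-Ab group against 0.38 ± 0.60 in the low-Ab group, and differed by −0.43 ± 0.36 (limma adjusted p = 0.933). Its interval ran from −1.31 to 0.45, and without low-Ab cow 3 the difference was −0.08. CCR3 was at 0.33 ± 0.56 and 0.09 ± 0.09, a difference of 0.24 ± 0.27, which was −0.09 without the shared cow. The other 5 receptors differed by between −0.09 and −0.01, each by less than its SE. In all 1 receptor was higher and 6 were lower, with a median of −0.02 against −0.01 over the 141 genes. Of the 7 receptors 0 passed adjustment (0.00% of 562 features), 0 had an unadjusted p under 0.05 (6.58% of features) and 0 had groups without overlap (10.6% of named genes).

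Turned, CXCR4 differed by −0.74 ± 0.35 between high-Ab and low-Ab cows. Low-Ab cow 1 then moved from 0.00 to 0.93, so that this cow and cow 3 both lay above every high-Ab cow. CCR7 moved from −0.02 to −0.22 ± 0.14 and CCR4 from −0.01 to −0.15 ± 0.16. None of the 7 receptors passed adjustment with these arrays turned, in any of the 5 comparisons. Across the Ab groups the T cell marker mean lay between 0.29 and 0.62 in high-Ab and between −0.03 and 0.17 in low-Ab cows. Of the 8 T cell markers 7 had higher ratios in high-Ab cows and 1, CD28, a lower one (−0.04 ± 0.10), and none passed adjustment. Beside these markers, CCR3 differed by 0.24 (turned 0.15), and CCR4, CCR7, CCR1 and CXCR2 by less than 0.05 in size as deposited. CCR9 differed by −0.09, and CXCR4, found on most leukocytes, by −0.43 (turned −0.74). The part of T cells in these differences was not tested. LTF lay between −1.57 and 0.21 in high-Ab and between −0.02 and 1.30 in low-Ab cows.

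The third comparison tested whether the high-minus-low effects of the traits differed. The shared cow cancels out, so 2 high and 3 low cows per trait carry it. All 7 receptors had a lower Ab than DTH effect, with a median of −0.15 against 0.01 over the 141 genes. CXCR4 differed by −1.0 ± 0.34 (interval −1.79 to −0.22, limma adjusted p = 0.294), CCR3 by −0.42 ± 0.15 (adjusted p = 0.297) and CCR4 by −0.39 ± 0.14 (adjusted p = 0.333). Of the 7 receptors 0 passed, against 1.25% of 561 features, and 3 had an unadjusted p under 0.05, against 10.2%. Turned, the values were −1.10 ± 0.42, −0.49 ± 0.16 and −0.52 ± 0.16. The sizes also depended on the arrays. Over arrays 1 and 2 they were −0.70 for CXCR4, −0.19 for CCR3 and −0.09 for CCR4. Over the later arrays they were −1.58, −0.66 and −0.72. Arrays 1 and 2 include both odd arrays of low-Ab cow 1, with a CXCR4 mean of −0.93. The later arrays include the odd array of low-DTH cow 3 as the only one of that cow (CXCR4 −1.32). This split was not repeated with the odd arrays turned. The CXCR4 difference was −0.66 without low-Ab cow 3, and that of CCR3 was −0.27 without high-Ab cow 2 and −0.24 without high-Ab cow 3. Without a high-Ab cow the shared cow, at 0.97 for CCR3, weighs more in the Ab than in the DTH effect. It then no longer cancels, so these CCR3 values also reflect the shared cow. Without the shared cow the CCR3 difference was −0.55. For CXCR4, CCR3 and CCR4 the sign was the same in all 11 cases of leaving out 1 cow.

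With each cow used once, no receptor passed between the 5 high and 6 low cows. CCR3 had the difference furthest from 0, at 0.34 ± 0.16 (limma adjusted p = 0.996), and it was 0.19 without the shared cow. CXCR4 differed by 0.01 ± 0.25, and by −0.25 ± 0.29 turned. Of the 7 receptors 5 were higher and 2 lower, with a median of 0.02 against −0.01. None passed adjustment (0.00% of 561 features), none had an unadjusted p under 0.05 (3.57%) and none had groups without overlap (1.42% of named genes).

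The low groups share no cow and were set against each other to order the levels. CXCR4 was higher in low-Ab than in low-DTH cows by 0.49 ± 0.30 (limma adjusted p = 0.840), and by 0.14 without low-Ab cow 3. CCR3 and CCR4 were each higher by 0.16 ± 0.12, and the other 4 receptors differed by at most 0.07 in size as deposited, and CCR7 by 0.18 ± 0.14 turned. None of the 7 passed adjustment (0.00% of 564 features), none had an unadjusted p under 0.05 (7.98%) and none had groups without overlap (13.5% of named genes). The median was 0.06 against 0.01. Over the 4 groups the mean CXCR4 ratio fell as deposited in the order high-DTH, low-Ab, high-Ab, low-DTH, and neighbours in that order overlapped. Turned, that order changed at both ends, to low-Ab (0.69 ± 0.55), high-DTH (0.46), low-DTH (0.11 ± 0.54) and high-Ab (−0.05). For CCR4 and CCR3 the high-DTH mean was the highest and the low-DTH mean the lowest, with both Ab groups between them and overlapping, as deposited and turned.

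CXCR4 was then followed array by array. In low-Ab cow 1 it was at −0.95 and −0.91 on arrays 1 and 2 and at 0.88 and 0.99 on arrays 3 and 4. The cow value of 0.00 is the mean of these opposite readings and matches none of them. In low-DTH cow 3 it was at 0.35, 0.81 and −1.32. In low-Ab cow 3 all 4 arrays were high, at 1.28, 1.24, 0.85 and 0.94.

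CXCR4 also differed between the first 2 and the later arrays of cows without these 3 arrays. It was at −0.72 on arrays 1 and 2 and 0.03 on arrays 3 and 4 of low-DTH cow 1, and at −0.42 and 0.35 in low-DTH cow 2. In high-DTH cow 3, of which 2 arrays had r = −0.24 with each other, the values were 0.02 and 0.89, while high-DTH cow 2 (0.32 and 0.52) and the shared cow (0.44 and 0.56) were steadier. CXCR4 thus stood higher on the later arrays in each of these 5 cows, and in high-Ab cow 2 (−0.54 and −0.33), but it was lower there in high-Ab cow 3, low-Ab cow 2 and low-Ab cow 3. The high-DTH minus low-DTH difference was 0.45 over arrays 1 and 2 and 0.97 over the later arrays, where the odd array of low-DTH cow 3 stands alone for that cow. CCR4 differed by 0.31 and 0.48 and CCR3 by 0.55 and 0.77, whereas CCR1 differed by 0.17 and −0.06. Array numbers are those of the labels, and what set the array sets apart is not given in the sources used here.

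**Figure D3:**
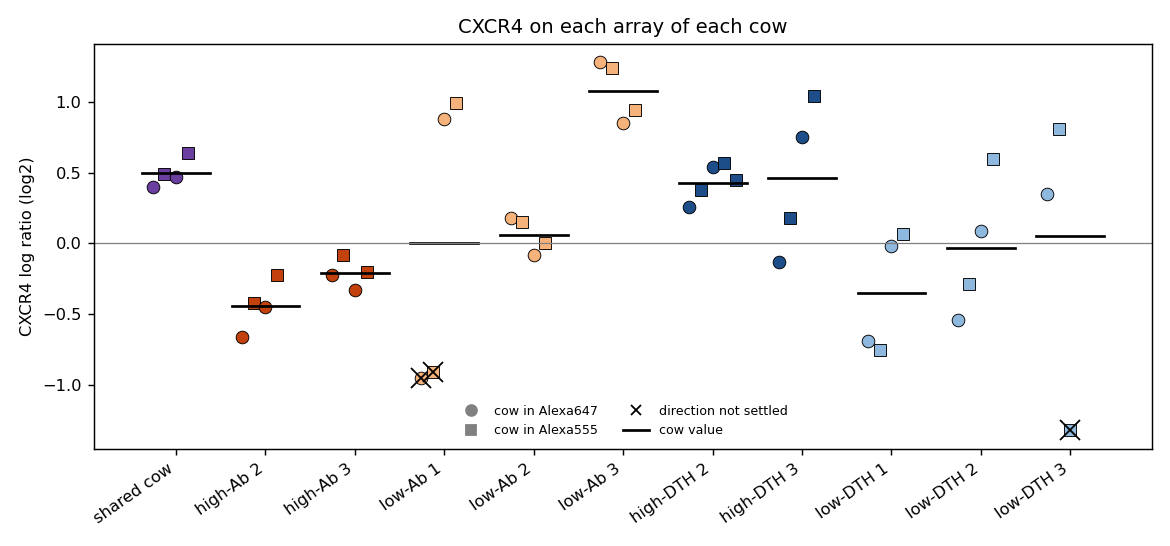
CXCR4 log ratio (y axis, log2) on each of 44 arrays, by cow (x axis) and in array order from left to right; circles have the cow in Alexa647, squares in Alexa555, crosses mark the 3 arrays of unsettled direction and bars the cow value. Low-Ab cow 1 has arrays near −0.9 and near 0.9, and the high-Ab cows other than the shared cow lie below 0 on all arrays.

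Several receptors read differently with the dyes swapped in the cows labelled for Ab only. The difference between arrays with the cow in Alexa647 and arrays with the cow in Alexa555 should be 0 for a gene without dye bias. In these 5 cows CCR1 read higher with Alexa647 by 0.67 ± 0.19 (mean ± SD, n = 5 cows) and CCR7 by 0.53 ± 0.11. CCR3 read lower by −0.49 ± 0.15, CXCR2 by −0.39 ± 0.20 and CCR9 by −0.29 ± 0.07, while CXCR4 was at −0.10 ± 0.09. All 7 receptors had the same sign in all 5 cows, as did 63.8% of the 141 genes. In the 5 cows labelled for DTH only this held for 1 receptor, CCR9, and for 17.0% of genes.

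In the DTH cows the mean dye differences were −0.10 ± 0.30 for CCR1, 0.03 ± 0.23 for CCR3 and 0.13 ± 0.24 for CCR7. The median size over all genes was 0.22 in Ab and 0.09 in DTH cows. A fit of the dye differences, chosen after these values had been seen, called 2 of 7 receptors between these cow sets, against 3.57% of 561 features. They were CCR1 (0.77 ± 0.15, limma adjusted p = 0.0194) and CCR3 (−0.52 ± 0.13, adjusted p = 0.0497). With the 3 odd arrays left out it called 3 of 7, adding CCR7 (0.44, adjusted p = 0.0239), against 50 of 555 features. As deposited it had called 20 of 561 features. With the odd arrays turned it called 0 of 7 receptors and 0 of 561 features. Turning an array also turns its part of the dye difference, so the turned fit is no check of that difference. The sizes were steadier than the calls. Leaving out 1 of the 10 cows at a time gave 0.68 to 0.89 for CCR1 and −0.61 to −0.46 for CCR3. CCR1 was called in 5 of these 10 refits, and not without high-Ab cow 2, low-Ab cow 1, high-DTH cow 2, high-DTH cow 3 or low-DTH cow 1. CCR3 was called in 2, without low-DTH cow 2 and without low-DTH cow 3, and not in the other 8. The shared cow had a dye difference of −0.43 for CCR3, near the Ab cows, and of 0.10 for CCR1, near the DTH cows.

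Because each cow value weights both dye orientations equally, a constant dye bias cancels from it. The SD between arrays of a cow takes in the dye difference, since both come from the same arrays. CCR1 had an SD between arrays of a cow of 0.44 in Ab and 0.20 in DTH cows, and CCR7 of 0.46 and 0.28. CXCR4, with a small dye difference in the Ab cows, had 0.50 and 0.56. These take in low-Ab cow 1 (1.08) and low-DTH cow 3 (1.12), which hold the odd arrays. In the other Ab cows the CXCR4 SD lay between 0.10 and 0.21, and in the other DTH cows between 0.13 and 0.53.

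**Figure D4:**
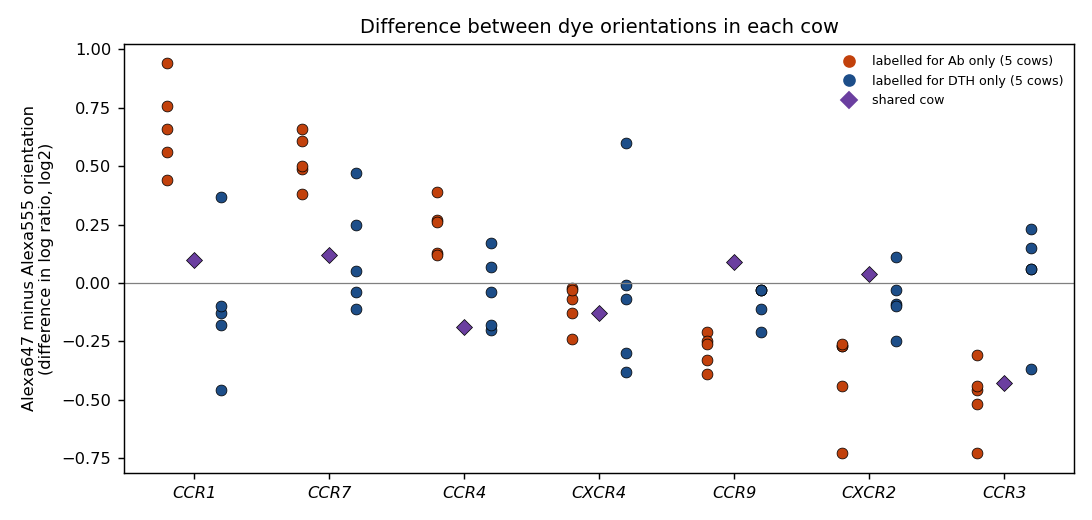
Difference in log ratio between dye orientations (y axis, Alexa647 minus Alexa555, log2) for each receptor gene (x axis), 1 point per cow: orange for 5 cows labelled for Ab only, blue for 5 labelled for DTH only, diamond for the shared cow. CCR1 and CCR7 lie above 0 and CCR3, CXCR2 and CCR9 below 0 in every Ab cow, whereas DTH cows scatter on both sides of 0 for all but CCR9.

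The odd arrays of low-Ab cow 1 have opposite dyes, which allows a further look at their direction. The difference of array 1 minus array 2 was 0.68 for CCR1, −0.34 for CCR3 and 0.49 for CCR7. That of array 3 minus array 4, with the same dye order, was 0.84, −0.70 and 0.51. As deposited all 7 receptors had the same sign of dye difference on both pairs, as did 84.3% of 140 genes, with r = 0.83 across genes. The mean ratios of the same pairs had r = −0.90 across genes. Genes are not independent replicates. The first pair thus opposed the second in the ratios but not in the dye difference, and turning the sign of the ratio on arrays 1 and 2 turns their dye difference too.

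Receptors were compared with each other over the 11 cows, as a description. All cows share the standard, and the shared cow counts once. CCR3 and CCR4 varied together, with r = 0.83 and a rank correlation of 0.84. The r was 0.80 without the 2 cows furthest from the median of CCR3, 0.87 without the shared cow and 0.78 turned. CCR4 and CXCR4 had r = 0.69 (rank correlation 0.86), and 0.73 turned. CCR3 and CXCR4 were less alike (r = 0.43), since low-Ab cow 3 was highest for CXCR4 and at 0.03 for CCR3. CCR1, the neighbour of CCR3 on the chromosome, had r = 0.49 with it. CCR9 and CXCR2 had r = −0.36.

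**Figure D5:**
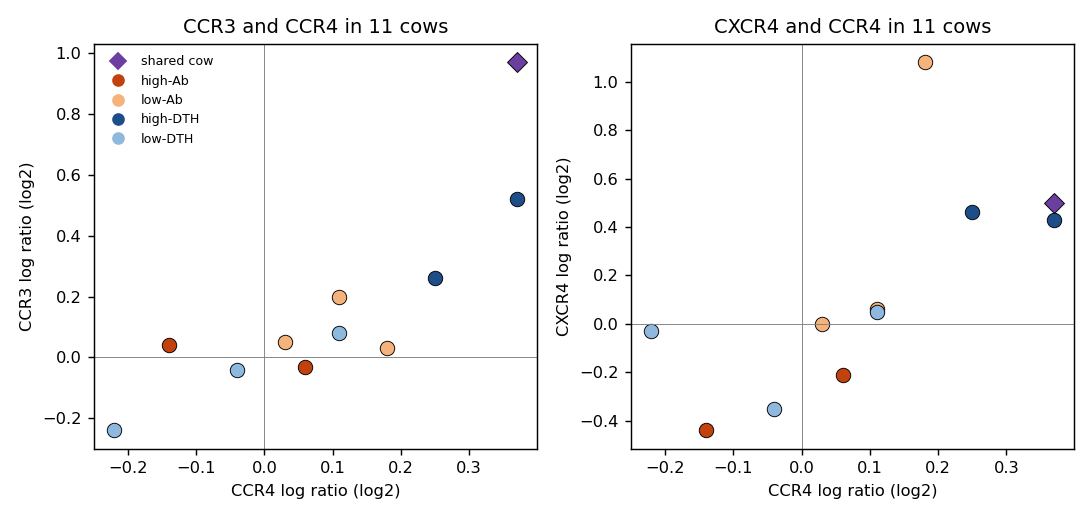
CCR3 (left) and CXCR4 (right) log ratio against the CCR4 log ratio (both axes log2) in 11 cows, coloured by label group, with the shared cow as a diamond. As deposited, the high-DTH cows and the shared cow hold the high end of CCR4 and CCR3 (turned, low-Ab cow 1 would lie at 0.44 for CCR4 and 0.32 for CCR3), and low-Ab cow 3 lies apart for CXCR4 at 1.08.

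For each receptor the 3 most similar of the 134 other named genes were taken by Pearson r over 11 cows. CCR3 was most like BCL2L1, a survival gene (r = 0.87), and the T cell surface genes CD5 (0.82) and CD3G (0.81). These rested in part on the shared cow, without which they were 0.61, 0.49 and 0.72. CCR4 was most like DAXX (0.77), IL1A (0.74) and BCL2L1 (0.73), each at least 0.70 without the shared cow. CXCR4 was most like the neutrophil granule gene LTF (0.75), PRP6 (0.67, rank correlation 0.29) and IL1A (0.65), and the last fell to 0.36 turned.

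CCR9 was most like the Th2 cytokine genes IL13 (0.84), IL5 (0.80) and IL4 (0.79), over a range of CCR9 ratios of only −0.09 to 0.14. CCR1 was most like IRF1 (0.77, but 0.36 turned), IL6R (0.76) and IL10 (0.68). CCR7 was most like C4A (0.76, but 0.37 turned), the interleukin 4 receptor IL4R (0.75) and the MHC class II gene BOLA-DQA2 (0.61). CXCR2 was most like SERPINA6 (0.66), IGCGAMMA (0.60, but 0.38 turned and a rank correlation of 0.24) and SIRPA (0.56). BCL2L1 was thus common to CCR3 and CCR4 and IL1A to CCR4 and CXCR4, and the other receptors shared none of these genes.

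Ligands were read beside their receptors. Of 36 listed chemokine ligands 8 were measured, and 5 of them bind one of the 7 receptors. CCL3, a ligand of CCR1, averaged −0.20 ± 0.36 in the high-DTH group against −1.25 ± 0.56 in the low-DTH group, and differed by 1.05 ± 0.32 (limma adjusted p = 0.494). CXCL8, a ligand of CXCR2, differed by 1.04 ± 0.50 (adjusted p = 0.576). Their receptors CCR1 and CXCR2 differed by 0.11 and 0.03 in that comparison. Between high-Ab and low-Ab cows CCL3 differed by −0.56 ± 0.35 and CXCL8 by −0.70 ± 0.44.

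CCL5 and CCL8, ligands of CCR1 and CCR3, differed by −0.05 ± 0.14 and −0.09 ± 0.09 for DTH and by −0.01 ± 0.25 and −0.11 ± 0.14 for Ab. SDF1 is a synonym of CXCL12, the ligand of CXCR4, in the RefSeq table, although the array's gene identifier for it was not matched there. It differed by −0.03 ± 0.10 for DTH and 0.04 ± 0.09 for Ab, and its highest ratio in any cow was 0.18. The ligands CCL17, CCL22, CCL19, CCL21 and CCL25 of CCR4, CCR7 and CCR9 were not among the named genes. Of the 8 ligands 4 were higher and 4 lower in high-DTH cows (median 0.04), and 1 was higher and 7 lower in high-Ab cows (median −0.10).

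Few other genes of the pathway were measured. Of 18 adhesion and homing genes 2 were named on the array. ICAM3 differed by −0.17 ± 0.12 for DTH and 0.18 ± 0.15 for Ab, and CD44, the hyaluronan receptor, by −0.06 ± 0.14 and −0.24 ± 0.12. Of 23 genes of receptor signalling only STAT3 was measured, at 0.02 ± 0.09 and 0.04 ± 0.09. None of these passed adjustment.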

How the data were processed

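Values are the log2 ratios deposited by the authors, 1 per spot and array. The log base is an assumption, and how the spots were scanned, background-corrected and normalized was not stated in the labels. Each array had a median between −0.08 and 0.07. The 8 spots of a gene were averaged, with 0 to 4 of 352 values missing per receptor. Arrays were averaged within each dye orientation and then over both, which gave 1 value per cow. Tests used limma 3.58.1 in R 4.3.3 (lmFit, eBayes) over all features, with p-values adjusted by Benjamini-Hochberg (threshold 0.05). On simulated data, with independent features of equal SD, the fits returned on average the differences put in. Such data lack the odd arrays and the unequal spreads of the genes, so they give no error rate for these data. Cows are the replicates; arrays of a cow are technical. No spot intensities were analysed here, so signal over background is unknown and the number of cows limits the precision. Genes were named from the array annotation. Named were all 7 receptors, their measured ligands, counts of the fixed gene lists, and per receptor the 3 genes of highest r; others stand as markers beside a result. The receptors, lists and tests were chosen with earlier results of these data known. Alternatives covered normalization, dyes, array sets, spot medians, the odd arrays and leaving out each cow.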

Additional observations from a re-analysis of the deposited data

Results flagged for a closer look

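Each receptor was checked for a cow that stands apart among the 5 high and among the 6 low cows, 14 checks in all, of which chance marks about 1 in 20. In CXCR2, high-Ab cow 2 stood at −0.09, below the other high cows, of which the nearest was at 0.07 (gap over range 0.72). That cow's arrays were at −0.16, 0.04, −0.75 and 0.51, wider apart than this gap. In CXCR4, low-Ab cow 3 stood at 1.08, above the other low cows, of which the nearest was at 0.06 (gap over range 0.71). With the 3 odd arrays turned, low-Ab cow 1 was at 0.93 for CXCR4, near that value.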

How the results depend on the processing

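Of 864 values over 40 results, 851 kept their direction and side of the threshold, or moved within the spread. A difference no larger than its SE counted here even with the opposite sign, if it was not called and moved within the spread. CXCR4 over all cows had its main sign in 11 of 24 alternatives, and CCR4 for Ab in 12 of 20. CXCR4, CCR4 and CCR3 for DTH each had it in 20 of 20. With arrays as units in place of cows, 1 receptor passed for DTH, CCR3 (0.67, limma adjusted p = 0.00949). Over all cows 1 passed, again CCR3 (0.35, limma adjusted p = 0.0309). There the p-values draw on arrays, and the share of all features that passed was not recorded for comparison. For DTH, CCR1 was at −0.06 over arrays 3 to 5. Between the low groups CCR3 was at −0.03 with Alexa647 alone, and CCR4 at −0.01 with Alexa555 alone and −0.02 over arrays 1 and 2. There CCR1 moved from −0.07 to 0.25 with Alexa647 alone, −0.40 with Alexa555 alone and −0.19 over arrays 3 to 5, and CCR9 from 0.06 to −0.03 and 0.16 with either dye. The cause was not tested. Over 20 alternatives the DTH difference lay between 0.36 and 0.97 for CXCR4, 0.29 and 0.48 for CCR4, and 0.46 and 0.81 for CCR3, with adjusted p from 0.171 to 0.973, 0.0832 to 0.973 and 0.00949 to 0.973. Leaving out 1 cow left 0 receptors called in each comparison.

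Cow numbers only name cows. Cows of the same number in the compared groups deviated together with r from −0.51 to 0.18 across genes, so the numbers were not taken as pairs. With cow number as a replicate block, 0 receptors passed, and CCR3 differed by 0.65 and CCR4 by 0.38 for DTH (adjusted p = 0.830 for each).

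Each group held 3 cows, and the values of 2 low cows average arrays of opposite sign. Leaving out both of those cows, an alternative chosen after seeing the data, also left 0 receptors called.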
